A study of Mus musculus with 6 samples.

Results

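Oocyte transcription factors and their early targets were followed in whole mouse ovaries at 16.5 days post-coitus (dpc). The 10 genes, picked by symbol from a deposited table of 54532 genes, are *Figla*, *Lhx8*, *Nobox*, *Sohlh1*, *Sohlh2*, *Taf4b*, *Zp1*, *Zp2*, *Zp3* and *Gdf9*. Poly(A) RNA of C57BL/6 ovaries was sequenced in 3 control (Ctrl) and 3 conditional knockout (cKO) libraries. In cKO mice both *Srsf1* alleles are floxed and the *Stra8-GFPCre* transgene, which acts in germ cells from the start of meiosis, removes exons of this gene for a splicing factor. The labels call the Ctrl mice wild type, so whether they carried floxed alleles or Cre is not given there. The labels do not say how many animals stand behind a library, and p-values therefore measure only the spread between these libraries. The tissue field names ovary whereas the extraction text of the labels names retina. *Ddx4*, a germ-cell gene, had 591 or more reads in every library, 11 genes of pregranulosa cells, the somatic cells of the fetal ovary that enclose oocytes, summed to 490 to 696 FPKM, and the 4 Y-linked genes looked up had 0 reads in all 6.

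Oocytes switch on a small network of transcription factors while they enter meiosis and before each is enclosed in a primordial follicle. *Sohlh1*, *Sohlh2* and *Figla* encode basic helix-loop-helix (bHLH) factors, *Lhx8* and *Nobox* encode homeodomain factors, and *Taf4b* encodes a gonad-enriched subunit of the general factor TFIID. FIGLA is known to activate the *Zp* genes, which encode the zona pellucida around the oocyte, and NOBOX is known to act on *Gdf9*, a secreted growth factor of the TGF-beta family. Mice lacking any of these factors are known to lose oocytes around or soon after follicle formation.

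To show the letters that bHLH factors can bind, the 250 bases before the RefSeq start site (build GRCm38.p6) were searched for the E-box CANNTG, a pattern that reads the same on both strands, and for its form CACGTG. *Sohlh1*, *Nobox* and *Figla* are shown as genes of the network, and *Zp3* as a textbook target of FIGLA. Each sequence runs 5′ to 3′ on the strand of its gene and ends at the start site, except that *Zp3* stops before an annotated exon. Capitals mark E-boxes.
Sohlh1, chr2:25847249-25847498, minus strand: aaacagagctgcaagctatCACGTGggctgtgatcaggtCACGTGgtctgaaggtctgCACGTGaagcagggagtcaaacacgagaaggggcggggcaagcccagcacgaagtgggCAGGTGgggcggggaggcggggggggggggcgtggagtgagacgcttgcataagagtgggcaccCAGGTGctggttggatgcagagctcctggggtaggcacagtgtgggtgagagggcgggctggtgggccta
Nobox, chr6:43309555-43309804, minus strand: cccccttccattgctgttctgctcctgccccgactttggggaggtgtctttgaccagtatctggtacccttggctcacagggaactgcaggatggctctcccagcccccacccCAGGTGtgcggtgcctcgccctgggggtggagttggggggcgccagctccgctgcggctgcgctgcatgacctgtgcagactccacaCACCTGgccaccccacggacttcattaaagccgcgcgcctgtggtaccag
Figla, chr6:86016941-86017190, plus strand: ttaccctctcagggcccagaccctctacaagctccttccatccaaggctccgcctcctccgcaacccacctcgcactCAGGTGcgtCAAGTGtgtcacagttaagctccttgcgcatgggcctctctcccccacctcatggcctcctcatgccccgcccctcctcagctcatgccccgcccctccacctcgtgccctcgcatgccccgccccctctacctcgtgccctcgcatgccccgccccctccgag
Zp3, chr5:135979855-135980098, plus strand: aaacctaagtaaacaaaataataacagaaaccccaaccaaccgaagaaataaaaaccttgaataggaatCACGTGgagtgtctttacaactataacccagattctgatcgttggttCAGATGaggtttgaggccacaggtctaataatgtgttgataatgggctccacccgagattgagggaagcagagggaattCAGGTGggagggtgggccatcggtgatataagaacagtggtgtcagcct

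The *Sohlh1* window held 5 E-boxes, of which 3 had the form CACGTG, at positions -231, -211 and -192 counted from the start site. Of the 32851 promoters in the RefSeq table, 6.02% held CACGTG at least once and 20 promoters (0.0609%) held it 3 or more times. *Zp3* held 3 E-boxes, of which 1 was CACGTG, whereas *Figla* and *Nobox* held 2 each. The *Sohlh2* window held 1 E-box and the *Lhx8* window held 0. An E-box is a common word, present in 66.2% of all windows of this length and 3 or more times in 12.2%. Of words that homeodomains are known to prefer, searched on both strands, TAATTG occurred in 7.17% of all windows, TAATTA in 4.84% and TGATTG in 12.7%. None of them occurred in these 6 windows. The printed *Figla* window lies inside the gene as the deposited table draws it, in no GENCODE exon. A match describes the letters only, and no binding was measured.

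Reads on genes ranged from 14212164 to 16784241 per library. *Srsf1* was lower in each cKO library (32.4, 37.0 and 36.4 FPKM) than in each Ctrl library (80.2, 70.1 and 63.1 FPKM), a log2 fold change of -0.99. FPKM, the deposited unit, divides the reads on a gene by its length and by library size, and fold changes below are cKO over Ctrl on log2(FPKM + 1), a scale that understates changes of low genes. Each gene with a mean FPKM of at least 0.5 was compared with limma, two-sided. At an unadjusted p below 0.05, the limit the study applied, 2.68% of the 17180 genes tested were higher and 1.75% were lower in cKO. After Benjamini-Hochberg adjustment limma called 0 genes (0%) at 0.05, against 761 at the unadjusted limit, and limma voom on reads recovered from FPKM also called 0, against 693 (350 higher and 343 lower). The split depends on scaling: of the genes past the unadjusted limit 460 were higher and 301 lower, but scaled to the germ-cell genes described below 41 were higher and 496 lower, with 13 past adjustment, and scaled to *Ddx4* 48 were higher and 271 lower, with 4 past adjustment.

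Of the 10 genes, 7 reached the minimum level and none of those 7 passed even the unadjusted limit in either direction. The 3 *Zp* genes were too low to test. Relative to *Ddx4*, a germ-cell RNA helicase gene also known as *Vasa*, *Lhx8* and *Nobox* RNA lay lower in all 3 cKO libraries than in any Ctrl library, as did 2.25% of all genes tested. In FPKM, both genes overlapped between the groups, and both reached the minimum level only through Ctrl. *Gdf9* FPKM lay higher in all 3 cKO libraries than in any Ctrl library, as did that of 4.59% of all genes tested, whereas *Gdf9* relative to *Ddx4* overlapped, with a cKO mean 0.958-fold of the Ctrl mean. *Figla*, *Sohlh1*, *Sohlh2* and *Taf4b* overlapped between groups in both measures. In whole ovaries, fewer oocytes and less RNA per oocyte cannot be told apart.

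The order of the mean levels over the 6 libraries was *Taf4b* (16.8 FPKM), *Sohlh2* (11.3), *Figla* (8.46), *Sohlh1* (2.29), *Gdf9* (1.15), *Lhx8* (0.707), *Nobox* (0.544), *Zp3* (0.0787), *Zp1* (0.0386) and *Zp2* (0.0035). The step from *Figla* to *Sohlh1* held in 6 of 6 libraries. Every other step down to *Nobox* over *Zp3* held in 5 of 6, so those neighbours were not in 1 fixed order. *Zp3* exceeded *Zp1* in only 1 of 6 libraries and *Zp1* exceeded *Zp2* in 3 of 6.

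**Figure D1:**
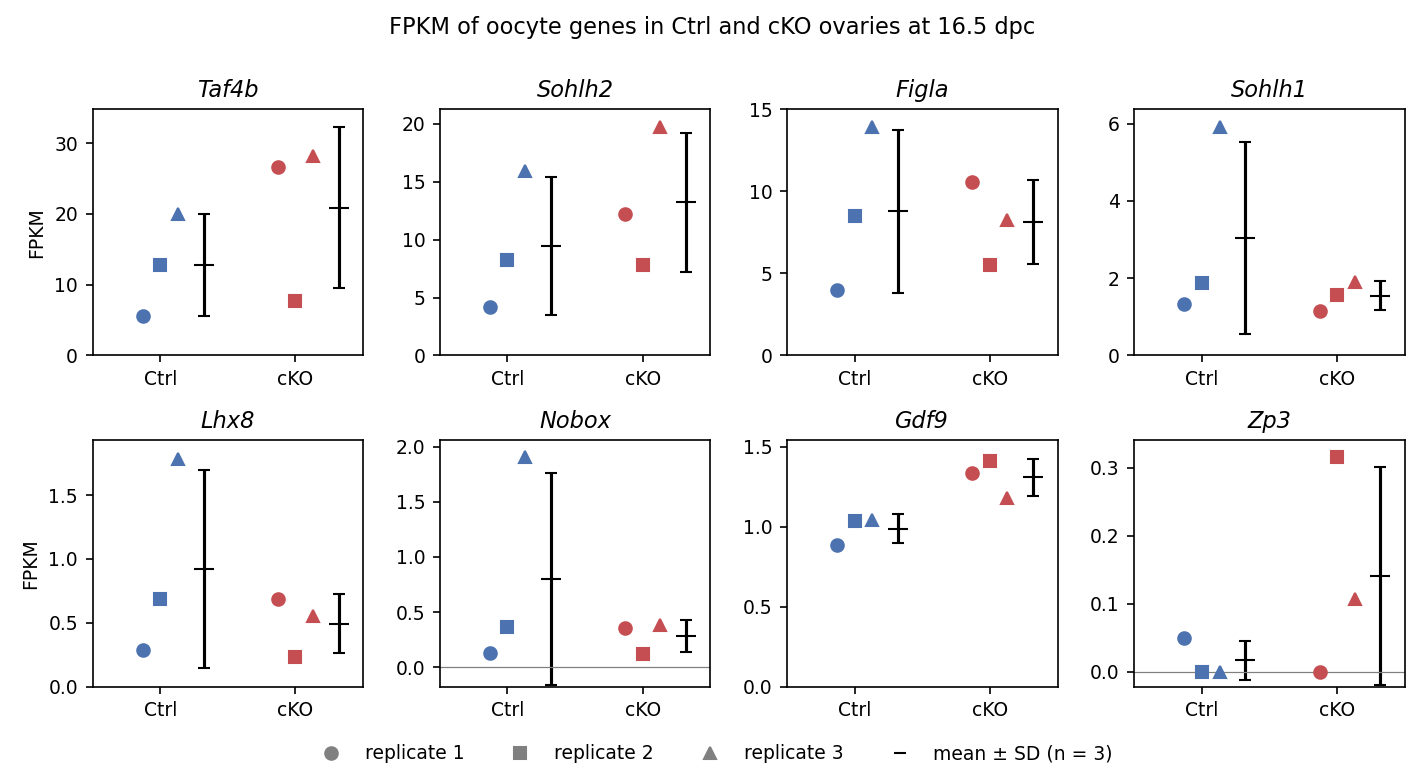
FPKM of 8 of the 10 genes in each library, on linear axes that differ between panels. Coloured symbols are single libraries (Ctrl blue, cKO red), and the black bar is the mean ± SD (n = 3), which reaches below 0 for *Nobox* and *Zp3*. The groups overlap for each gene shown except *Gdf9*, and Ctrl 3 is the highest library for *Figla*, *Sohlh1*, *Lhx8* and *Nobox*.

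The bHLH gene *Figla* (ENSMUSG00000030001) lies on chromosome 6 of GRCm38 from 86016171 to 86020996, plus strand. The Ctrl libraries 1, 2 and 3 had 3.99, 8.50 and 13.9 FPKM and the cKO libraries, in the same numbering, had 10.6, 5.49 and 8.26 FPKM, from 50 to 203 reads. The cKO libraries sat inside the Ctrl range. The means were 8.80 ± 4.96 (SD, n = 3) in Ctrl against 8.11 ± 2.56 (SD, n = 3) in cKO. The log2 fold change was -0.01 with a 95% interval from -0.98 to 0.97 (limma, unadjusted p = 0.988). Its sign depends on the setting, being 0.01 with a pseudocount of 0.1 and 0.37 without Ctrl 3. The interval holds both a fall to 0.506-fold and a rise to 1.96-fold, so a moderate change was not detectable here.

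*Sohlh1* (ENSMUSG00000059625; chromosome 2, 25842995 to 25847248, minus strand) had FPKM of 1.35, 1.87 and 5.91 in Ctrl against 1.15, 1.57 and 1.91 in cKO. Ctrl 3 stood far above the other 5 libraries, with 133 reads against 23 to 39. The log2 fold change was -0.51 (SE 0.40; limma, unadjusted p = 0.243), and without Ctrl 3 it was -0.04. Its bHLH relative *Sohlh2* (ENSMUSG00000027794; chromosome 3, 55182028 to 55209957, plus strand) had FPKM of 4.20, 8.26 and 15.9 in Ctrl against 12.2, 7.81 and 19.7 in cKO. Here cKO 3 was highest, and the log2 fold change was 0.52 (SE 0.47; limma, unadjusted p = 0.309). Scaled to the germ-cell list described below, that value turned to -0.09, while the same scaling moved the median of all genes to -0.57.

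*Lhx8* (ENSMUSG00000096225; chromosome 3, 154306294 to 154330659, minus strand), a LIM-homeodomain gene, had FPKM of 0.290, 0.683 and 1.79 in Ctrl against 0.690, 0.235 and 0.556 in cKO. Between 10 and 79 reads stood behind each value, with Ctrl 3 the highest. The log2 fold change was -0.30 with a 95% interval from -1.02 to 0.42 (limma, unadjusted p = 0.360). *Nobox* (ENSMUSG00000029736; chromosome 6, 43303674 to 43309554, minus strand) had FPKM of 0.133, 0.368 and 1.91 in Ctrl against 0.354, 0.118 and 0.385 in cKO. Ctrl 3 held 67 of its 109 reads over all libraries, and the other 5 libraries held 4 to 12 each. Its log2 fold change was -0.37 with a 95% interval from -1.22 to 0.48 (limma, unadjusted p = 0.339). Without Ctrl 3, both genes fell below the minimum level and gave no fold change in this fit.

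*Taf4b* (ENSMUSG00000054321; chromosome 18, 14783245 to 14900359, plus strand) was the most abundant of the 10, from 427 to 2114 reads per library. Its FPKM was 5.53, 12.8 and 20.0 in Ctrl against 26.6, 7.75 and 28.2 in cKO. Although cKO 1 and cKO 3 exceeded every Ctrl library, cKO 2 lay below 2 of them. The log2 fold change was 0.63 (SE 0.58; limma, unadjusted p = 0.314). It was the only gene of the 10 to pass the unadjusted limit when 1 library was left out of this fit: without cKO 2 it was 1.20 (limma, unadjusted p = 0.0486). The *Zp* genes were not tested in these fits, nor were *Lhx8* and *Nobox* without Ctrl 3. Scaled to the germ-cell list, *Taf4b* was at -0.01, while the same scaling moved the median of all genes to -0.57.

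Among the targets, *Gdf9* (ENSMUSG00000018238; chromosome 11, 53431023 to 53437904, plus strand) had FPKM of 0.886, 1.03 and 1.04 in Ctrl against 1.34, 1.41 and 1.18 in cKO. The groups did not overlap. The means were 0.988 ± 0.0878 (SD, n = 3) in Ctrl against 1.31 ± 0.117 (SD, n = 3) in cKO (two-sided p = 0.1 by exact permutation, which is as low as 3 against 3 libraries can go). The log2 fold change of 0.22 did not pass the limit (SE 0.14; limma, unadjusted p = 0.163, adjusted p = 0.978), and it was below 0, though above the median of all genes, under each scaling to germ-cell genes that was run. Its 222 reads gave a cKO over Ctrl ratio of 1.33 with a 95% counting interval (exact, conditional) of 1.01 to 1.75. Set against the reads of *Ddx4*, the ratio was 1.03 (0.782 to 1.35). Both intervals pool reads, cover counting error only and leave out the spread between libraries. No gene of the deposited table overlaps *Gdf9*, although *Uqcrq*, at 16.6 to 29.7 FPKM, lies start to start with it on the other strand, with 191 bases between the genes.

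The zona genes were at the limit of detection. *Zp1* (ENSMUSG00000024734; chromosome 19, 10914287 to 10920632, minus strand) had 2, 0 and 2 reads in Ctrl against 0, 0 and 3 in cKO. *Zp2* (ENSMUSG00000030911; chromosome 7, 120126772 to 120145291, minus strand) had 1 read in Ctrl 3 and 0 in each other library. *Zp3* (ENSMUSG00000004948; chromosome 5, 135980099 to 135988624, plus strand) had 1, 0 and 0 reads in Ctrl against 0, 7 and 2 in cKO. A library with 0 reads allows up to 3, which is 0.0867 to 0.107 FPKM for *Zp1*, 0.063 to 0.0776 for *Zp2* and 0.13 to 0.16 for *Zp3*, counting error only. A difference between groups was thus not detectable for these genes at this depth, although *Figla*, their textbook activator, had 50 or more reads in every library.

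The libraries of 1 group differed widely in germ-cell RNA. A list of 10 general germ-cell genes, of which 9 are in the table (*Ddx4*, *Dazl*, *Mael*, *Tdrd1*, *Tdrkh*, *Stk31*, *Tex15*, *Mov10l1* and *Rnf17*), summed to 93.8 to 356 FPKM in Ctrl and to 183 to 553 FPKM in cKO. *Ddx4* itself was 13.1, 31.5 and 49.0 FPKM in Ctrl against 51.9, 20.3 and 55.1 in cKO, so the groups overlapped. Its log2 fold change was 0.49 (limma, unadjusted p = 0.403). Of the 9 list genes, 8 leaned upward in cKO and *Tdrd1* leaned downward (-0.24). The middle value of the 9 was 0.71 on the log2 scale, and 1 gene passed the unadjusted limit. Values set against *Ddx4* or the list are to be read beside this upward lean, whose cause was not tested. Ctrl 1 and cKO 2 were low in the list, and cKO 1 and cKO 3 were high. *Dazl*, an RNA-binding protein gene of the list, was higher in cKO by 1.60 on the log2 scale (limma, unadjusted p = 0.0345), a call lost without any 1 of 4 libraries (Ctrl 1, Ctrl 2, cKO 1 or cKO 3).

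*Taf4b* put the 6 libraries in the same order as the germ-cell list, lowest in Ctrl 1 and highest in cKO 3, and *Sohlh2* differed from that order only in having cKO 1 below Ctrl 3. *Figla*, *Lhx8*, *Nobox* and *Sohlh1* instead peaked in Ctrl 3, where the list was below its level in cKO 1 and cKO 3. From the lowest to the highest library, *Ddx4* spanned 4.21-fold, *Taf4b* 5.11-fold, *Sohlh2* 4.69-fold and *Figla* 3.49-fold. *Nobox* spanned 16.1-fold, *Lhx8* 7.59-fold and *Sohlh1* 5.12-fold. *Gdf9* spanned only 1.59-fold and did not have the order of the list.

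**Figure D2:**
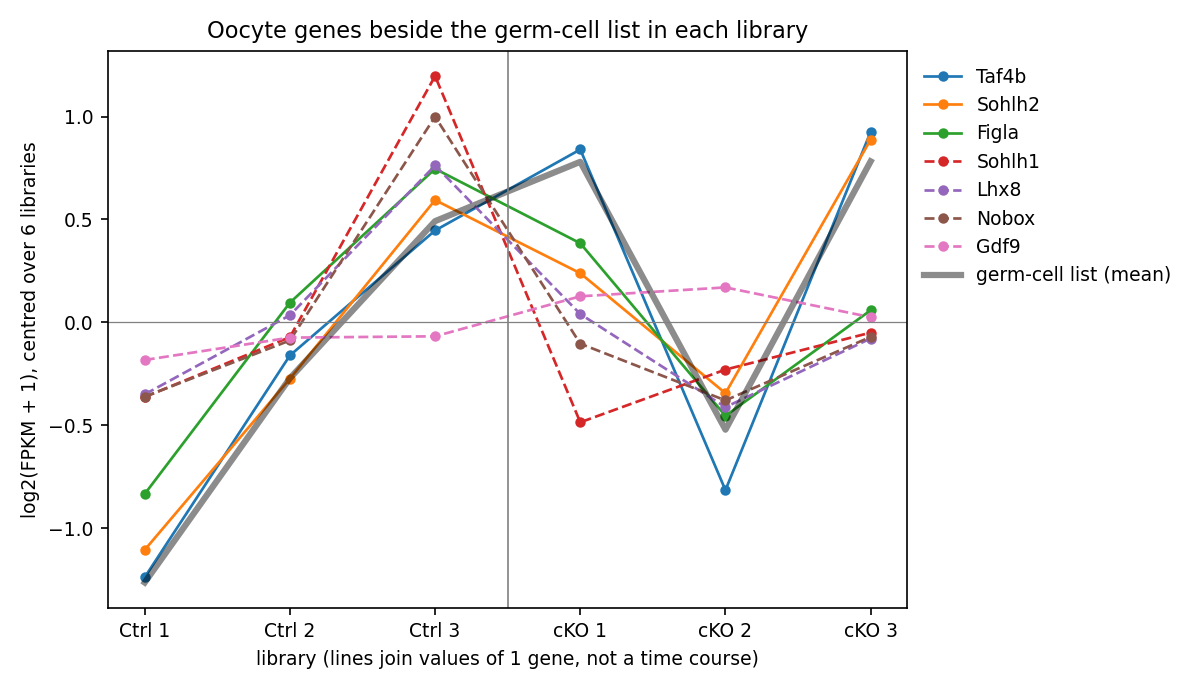
Log2(FPKM + 1) of the 7 tested genes and the mean of the germ-cell list in each of the 6 libraries, each centred on its own mean. The list runs from -1.26 in Ctrl 1 to 0.78 in cKO 1 and cKO 3. *Sohlh1* and *Nobox* reach 1.20 and 1.00 in Ctrl 3 and lie below 0 in every other library, Ctrl and cKO alike.

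To set each factor against the germ cells of its own library, its FPKM was divided by that of *Ddx4*. The study used this reference gene in RT–qPCR of primordial follicle formation genes in newborn ovaries, a later stage than here. *Lhx8* was 2.22%, 2.17% and 3.65% of *Ddx4* in Ctrl against 1.33%, 1.16% and 1.01% in cKO. *Nobox* was 1.01%, 1.17% and 3.89% of *Ddx4* in Ctrl against 0.682%, 0.585% and 0.699% in cKO. Both genes were lower in every cKO library, with cKO means at 0.436-fold and 0.324-fold of the Ctrl means (two-sided p = 0.1 each by exact permutation, as low as this design can go). These were 2 of the 7 genes, beside the 2.25% of all genes tested. Because both reached the minimum level only through Ctrl, the count favours lower values in cKO and is no support for a fall.

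Without Ctrl 3, *Lhx8* and *Nobox* necessarily stayed without overlap, since leaving out a library cannot make separated groups overlap. Summed over the remaining libraries, *Lhx8* had 39 reads in Ctrl against 57 in cKO beside 2128 and 5799 reads of *Ddx4*, a ratio of 0.536 with a 95% counting interval (exact, conditional) of 0.351 to 0.828. *Nobox* had 16 and 26 reads, a ratio of 0.596 with a counting interval of 0.308 to 1.19. For *Nobox*, the difference without Ctrl 3 was therefore within counting error. For *Lhx8* it was beyond counting error, but these intervals pool reads and leave out the spread between libraries. They are thus no test between the groups. With all libraries the ratios were 0.392 (0.281 to 0.542) for *Lhx8* and 0.254 (0.157 to 0.399) for *Nobox*.

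*Figla* was 30.5%, 27.0% and 28.4% of *Ddx4* in Ctrl against 20.4%, 27.1% and 15.0% in cKO. Only cKO 2 reached the Ctrl range. Per *Mael*, another germ-cell gene, *Figla* was 23.7%, 23.7% and 20.1% in Ctrl against 19.2%, 19.2% and 14.1% in cKO, without overlap. By this measure *Lhx8* and *Nobox* were also lower without overlap, so 3 of the 7 genes were, beside 1.79% of all genes tested. *Mael* was chosen as a reference after its values were seen, so this count is no support for a fall. For *Lhx8* and *Nobox* the limit given for *Ddx4* applies as well, as both reached the minimum level only through Ctrl. *Sohlh1* was 10.3%, 5.93% and 12.1% of *Ddx4* in Ctrl against 2.22%, 7.76% and 3.47% in cKO, with overlap. *Sohlh2* (26.2% to 32.4% in Ctrl, 23.5% to 38.6% in cKO) and *Taf4b* (40.6% to 42.3% and 38.3% to 51.3%) overlapped as well, although *Taf4b* in cKO 1 and cKO 3 exceeded every Ctrl library. *Gdf9* overlapped too. *Dazl* per *Ddx4* went the other way, from 124% to 176% in Ctrl and from 280% to 398% in cKO, so the choice of reference gene bears on such ratios. In limma on values scaled to *Ddx4*, none of the 7 passed the unadjusted limit, and that scaling moved the median of all genes to -0.42 on the log2 scale.

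**Figure D3:**
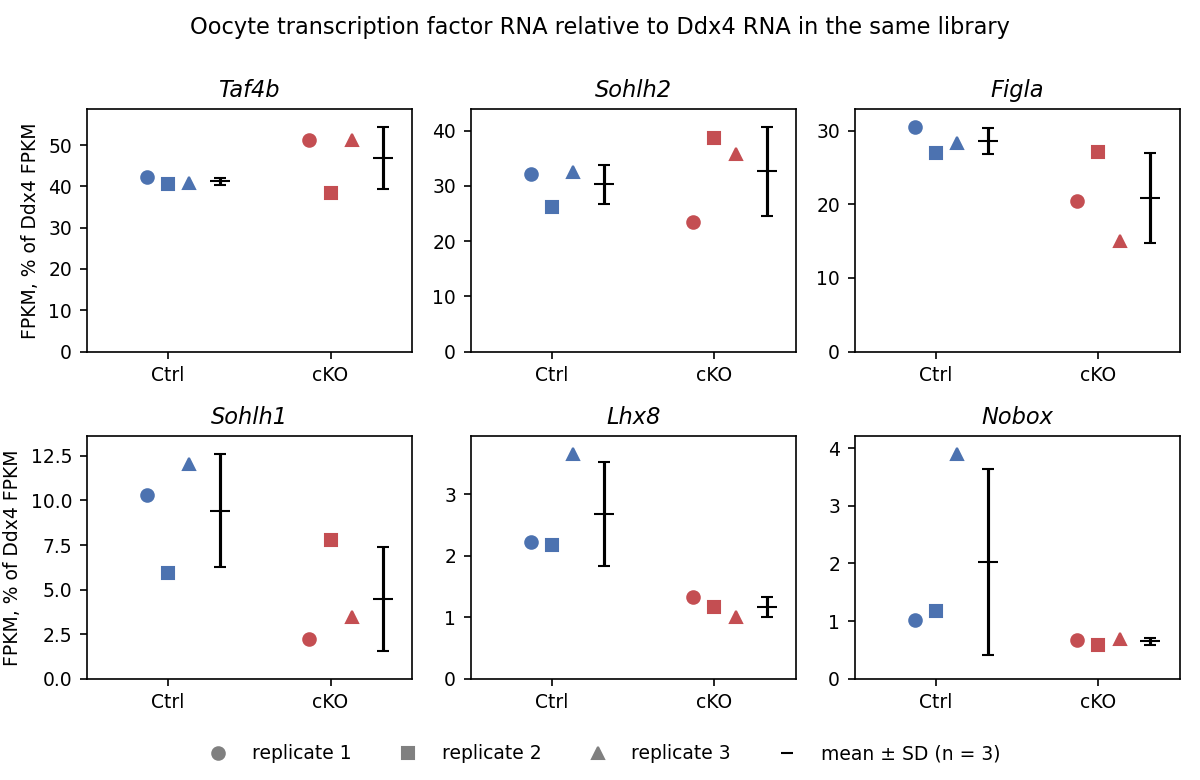
FPKM of the 6 transcription factor genes as a percent of *Ddx4* FPKM in the same library, with single libraries as symbols (Ctrl blue, cKO red) and the mean ± SD (n = 3) as a black bar, on linear axes from 0. The 3 cKO libraries lie below all 3 Ctrl libraries for *Lhx8* and *Nobox* and overlap them for the other 4.

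Next, the mean log2 level of the germ-cell list was a covariate in limma. In that fit 3 of the 7 genes were lower in cKO at the unadjusted limit, against 3.62% of all genes tested. *Lhx8* and *Nobox* reached the minimum level only through Ctrl (means 0.920 and 0.802 FPKM, against 0.494 and 0.286 in cKO). The count therefore favours lower values in cKO and is no support for a fall. *Figla* was -0.52 (95% interval -0.96 to -0.08; limma, unadjusted p = 0.027, adjusted p = 0.802), against -0.01 without the covariate. *Lhx8* was -0.64 (-1.13 to -0.14; limma, unadjusted p = 0.0202, adjusted p = 0.757). *Nobox* was -0.73 (-1.41 to -0.06; limma, unadjusted p = 0.037, adjusted p = 0.812). None of the 3 passed after adjustment. Without Ctrl 3 none passed the unadjusted limit, and their values shrank to -0.35 for *Figla*, -0.36 for *Lhx8* and -0.23 for *Nobox*. The call of *Nobox* was also lost without Ctrl 1, cKO 1 or cKO 3, and that of *Figla* without Ctrl 2, so only *Lhx8* kept its call in each of the other 5 fits with a library left out. Without cKO 2, *Figla* was -0.80 and *Nobox* -1.12. *Sohlh1* at -0.85 missed the limit (limma, unadjusted p = 0.0606), was at -0.11 without Ctrl 3, and passed without Ctrl 2 (-1.04) or cKO 2 (-1.49). In the same fit, *Sohlh2* and *Taf4b* were at -0.07 and -0.14. *Gdf9* was at 0.21, close to its 0.22 without the covariate. With the list taken without *Dazl* the same 3 genes passed, and with *Ddx4* alone as covariate only *Lhx8* did (limma, unadjusted p = 0.0423).

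**Figure D4:**
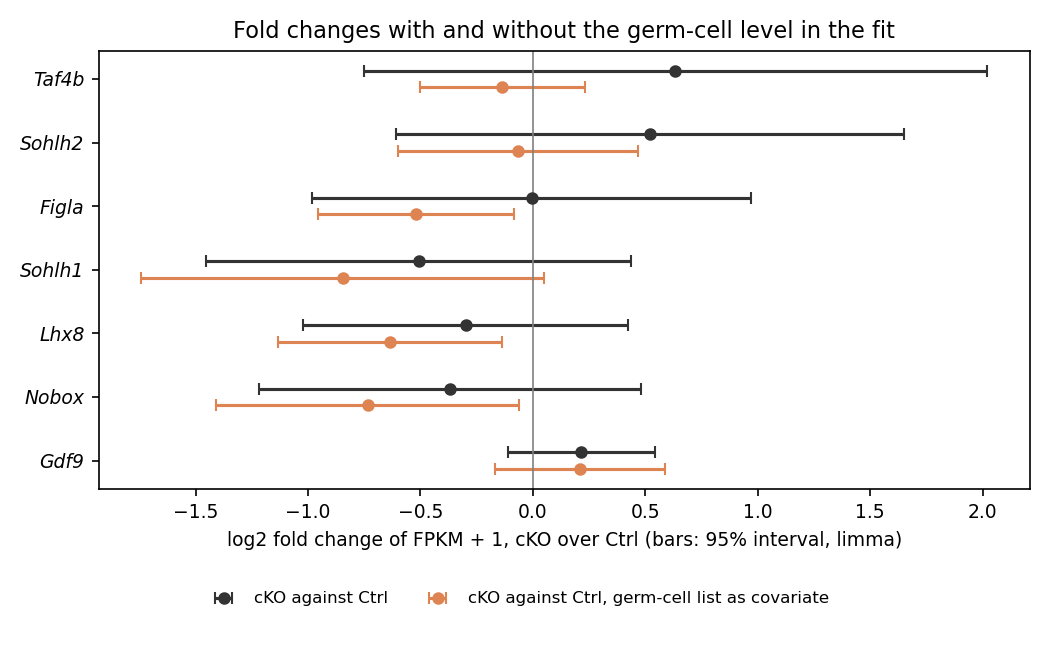
Log2 fold change of the 7 tested genes, cKO over Ctrl, with 95% intervals from limma, without (black) and with (orange) the mean level of the germ-cell list as a covariate. With the covariate the intervals of *Figla*, *Lhx8* and *Nobox* lie below 0, *Sohlh1* reaches 0.05, and *Gdf9* is at 0.21.

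Ratios between the genes need no reference gene. Of the 21 pairs among the 7 tested genes, 7 (33.3%) had ratios that did not overlap between Ctrl and cKO. Among all pairs of the 16563 genes tested and above 0 in every library, 9.38% did so in either direction. The 7 pairs share members, so they are not 7 separate observations. All but *Sohlh2* over *Figla* and *Sohlh2* over *Sohlh1* include *Lhx8* or *Nobox*, which reached the minimum level only through Ctrl. The count therefore favours lower values of *Lhx8* and *Nobox* in cKO and is no support for a fall. All 7 were higher in cKO with *Sohlh2*, *Taf4b* or *Figla* as the numerator. The ratio of *Sohlh2* to *Lhx8* was 14.5, 12.1 and 8.89 in Ctrl against 17.7, 33.2 and 35.4 in cKO. Its ratio to *Sohlh1* was 3.13, 4.42 and 2.69 in Ctrl against 10.6, 4.97 and 10.3 in cKO, and its ratios to *Figla* and *Nobox* were also higher in every cKO library. *Taf4b* over *Lhx8* was 19.1, 18.7 and 11.2 in Ctrl against 38.5, 33.0 and 50.8 in cKO. *Taf4b* over *Nobox* was 41.7, 34.7 and 10.5 in Ctrl against 75.1, 65.5 and 73.3 in cKO. *Figla* over *Lhx8* was 13.8, 12.4 and 7.78 in Ctrl against 15.4, 23.3 and 14.8 in cKO.

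Partners of these factors were described for comparison. The bHLH partners *Tcf3*, *Tcf4* and *Tcf12*, the LIM-domain binders *Ldb1* and *Ldb2*, and the TFIID genes *Taf4*, *Taf12*, *Taf9b* and *Tbp* were all tested, and 0 of the 9 passed the unadjusted limit in limma, nor did any after adjustment. Their median log2 fold change was -0.08, beside -0.01 over all genes. *Ldb1* had the highest mean of them and was 83.9, 79.1 and 56.2 FPKM in Ctrl against 52.1, 82.5 and 44.2 in cKO, with overlap. *Tcf3*, the partner of many tissue-specific bHLH factors, was 61.8 ± 6.22 FPKM (SD, n = 3) in Ctrl against 58.5 ± 7.79 (SD, n = 3) in cKO, and *Tcf12* and *Ldb2* were at 0.20 and 0.29 on the log2 scale.

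A list of 25 other genes of primordial follicle formation and the oocyte programme held 12 that reached the minimum level. Of these, 1 was higher, 1 was lower and 10 did not pass, beside 2.68% higher and 1.75% lower over all genes, and the median was -0.06. *Kit*, the receptor of KIT ligand on oocytes, had FPKM of 7.47, 7.55 and 7.39 in Ctrl against 5.18, 4.45 and 6.41 in cKO. Its log2 fold change was -0.43 (limma, unadjusted p = 0.0215, adjusted p = 0.978), and the call was lost without any 1 of Ctrl 1, Ctrl 2, Ctrl 3 or cKO 1. *Kit* differed little between the Ctrl libraries, unlike *Ddx4*, and it is known to be expressed outside germ cells too. With the germ-cell list as covariate, described above, *Kit* was at -0.49 (limma, unadjusted p = 0.0156, adjusted p = 0.730), a call lost without cKO 2 (-0.32). *Dppa3*, a maternal factor gene, was higher by 1.34 (limma, unadjusted p = 0.0312, adjusted p = 0.978), with 0.897, 0.139 and 1.54 FPKM in Ctrl against 2.68, 1.67 and 8.05 in cKO. That call was lost without Ctrl 1, Ctrl 2 or cKO 3, and with the germ-cell list as covariate (1.01; limma, unadjusted p = 0.0958). *Ybx2*, an oocyte RNA-binding protein gene, was at 34.0 ± 20.5 FPKM (SD, n = 3) in Ctrl against 27.9 ± 3.41 (SD, n = 3) in cKO and did not pass. The broadly expressed *Rac1* and *Foxo3* did not pass either, and *Tle6* was at -0.03. *Rfpl4*, *Oog1* and *Tbpl2*, genes of later oocytes, had 0 reads in all libraries.

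Other lists were counted at the same unadjusted limit, with no list tested as a whole. Beside the 2.68% of all genes that were higher and the 1.75% that were lower, 4 of 20 meiosis genes were higher (*Stra8*, *Syce1*, *Syce2* and *Tex12*) and 0 were lower. Among the 5 of 8 pluripotency genes tested, *Utf1* was higher and *Kit*, also on this list, was lower. Of these calls and those of *Kit*, *Dppa3*, *Dazl* and *Hbb-y*, 9 in all, only *Stra8* and *Hbb-y* passed with each library left out in turn. None passed for pregranulosa cells (11 tested), stroma (6), endothelium (5), immune cells (4), mesonephros (3) or steroid-producing cells (3). Red-cell genes summed to 4860 to 22980 FPKM in Ctrl and to 1716 to 10420 in cKO, with 1 of 8, *Hbb-y*, higher. The part of red cells and of germ-cell level in the values of the 10 genes was not tested beyond the ratios and covariate fits given above.

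The genes tested whose centred log2(FPKM + 1) lay closest to each factor over the 6 libraries were found by root mean square difference. For *Taf4b* they were *AI481877* (0.0933), *Map7d2* (0.108) and *Rnf17* (0.119), the last of them a germ-cell list gene. For *Figla* they were *Fmr1nb* (0.0724), *Zfp42* (0.0814) and *Spdye4b* (0.0841), and for *Lhx8* they were *Galnt3* (0.0725), *Thnsl1* (0.0848) and *4933425L06Rik* (0.0848). For *Nobox* the nearest was *Fam229b* (0.0933), for *Sohlh1* *Gm10805* (0.112), for *Sohlh2* *Gm26109* (0.0612) and for *Gdf9* *Klhl8* (0.0303). These are the smallest of 17180 values over only 6 points and describe likeness in these libraries alone.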

How the data were processed

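Poly(A) RNA, purified from total RNA of whole ovaries, was sequenced in 3 Ctrl and 3 cKO libraries, grouped by the sample labels. The authors mapped paired-end reads to mm10 (GRCm38) with HISAT2 2.0.5 and made counts with featureCounts. The values they deposited are FPKM, that is, reads over gene length and library size. Not given in the sources used here were the annotation release and whether strand was counted. Undoing the division by length turned 100% of the deposited FPKM values into whole numbers of reads (tolerance 0.05), which gave the depth per library (14212164 to 16784241 reads on genes).

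The 17180 genes that averaged 0.5 FPKM or more were compared as log2(FPKM + 1) with limma 3.58.1 in R 4.3.3, with an intensity trend and group as the only term, two-sided, with Benjamini-Hochberg adjustment over all genes tested. Single values were compared with exact permutation tests. The fit was tested on simulated data. Counting intervals cover counting error only, at a level of 95%. Tables and figures were made in Python 3.11.15 (scipy 1.17.1, numpy 2.4.6, matplotlib 3.10.9, pandas 2.3.3).

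The 10 genes and the gene lists were chosen with earlier results of these data known. Named genes are *Srsf1*, the 10 genes, *Ddx4*, listed genes past the unadjusted limit, the 4 highest genes of the oocyte-programme and partner lists, and the 3 nearest genes by profile. *Mael* and *Dazl* as references, and the other named genes of these lists, were chosen after their values were seen. Promoters came from RefSeq (GRCm38.p6), where 6 of the 9 genes looked up had an entry, and exons from GENCODE. The alternatives were other pseudocounts, minimum levels, scalings and covariates, voom on the recovered reads, the replicate block and each library left out in turn.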

Additional observations from a re-analysis of the deposited data

How the results depend on the processing

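At the unadjusted limit, 0 of the 7 tested genes passed in every alternative that kept all 6 libraries and had no germ-cell covariate, including voom and the replicate block. The labels' replicate numbers gave no sign of pairing (same-number correlations of -0.39, -0.03 and 0.12), though such values cannot exclude it. The fit with the replicate block called 681 genes and 0 of the 7. The number of the 7 that passed was 0 to 1 with each library left out, the 1 being *Taf4b* without cKO 2. Without Ctrl 3 only 5 of the 7 were tested. It was 3 with the germ-cell list as covariate, 3 without *Dazl* in that list, 3 with a pseudocount of 0.1 and 1 with *Ddx4* as covariate, and with the list as covariate and each library left out it was 0 to 4, the 0 being without Ctrl 3. Of these, all covariate fits other than the first, and the scalings to *Mael* or to *Ddx4* with a pseudocount of 0.1, were chosen after seeing the data.

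The median of the 7 was -0.01, against -0.46 scaled to the germ-cell list, -0.49 scaled to *Ddx4* with a pseudocount of 0.1, -0.52 with the list as covariate and -0.55 with that covariate and a pseudocount of 0.1. With the covariate and each library left out it ranged from -0.80 to -0.23, and without the covariate from -0.42 to 0.37. The scalings to the germ-cell list, *Ddx4*, *Ddx4* with a pseudocount of 0.1 and *Mael* moved the median of all genes to -0.57, -0.42, -0.51 and -0.33, against which values under those scalings are to be read.

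Genes past the limit numbered 761, against 1331 without a minimum, 319 scaled to *Ddx4*, 335 with a pseudocount of 0.1 as well and 354 scaled to *Mael* (13 and 8 of these last 335 and 354 past adjustment). They numbered 365 to 2500 with each library left out (4 past adjustment without Ctrl 1), and 624 to 1663 with that and the covariate. Oocyte-programme genes past the limit numbered 2, against 0 scaled to the germ-cell list, 0 scaled to *Ddx4*, 1 with a pseudocount of 0.1 as well, 1 scaled to *Mael* and 1 in each of the 4 covariate fits on all libraries. They numbered 0 to 2 with each library left out and 1 to 3 with the covariate too.

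*Figla* turned to 0.0074 with a pseudocount of 0.1, 0.0005 with 0.5, 0.0002 with median-ratio scaling and 0.04, 0.37 and 0.22 without Ctrl 2, Ctrl 3 or cKO 2 (range -0.42 to 0.37, and -0.80 to -0.35 with the covariate too). *Sohlh2* turned to -0.093 scaled to the germ-cell list, -0.068 with it as covariate, -0.042 with a pseudocount of 0.1 as well and -0.26 to 0.13 with each library left out of the covariate fit (0.10 to 0.95 without the covariate). *Taf4b* turned to -0.012, -0.14 and -0.12 in those 3 fits, -0.019 without *Dazl* in the list and -0.36 to 0.11 with each library left out of the covariate fit (0.17 to 1.20 without the covariate). *Gdf9* turned to -0.14 scaled to the germ-cell list, -0.047 scaled to *Ddx4*, -0.091 with a pseudocount of 0.1 as well and -0.0084 scaled to *Mael*. The cause was not tested. With a pseudocount of 0.1 *Lhx8* was -0.58 and *Nobox* -0.73, and with voom -0.71 and -0.91, against -0.30 and -0.37. *Lhx8* and *Nobox* gave no value under a minimum of 1 FPKM or without Ctrl 3. Depth limits *Nobox*, *Lhx8* and the *Zp* genes most. Leaving a library out left 2 in its group, whose spread was shared with the other group.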
